A study of Mus musculus with 9 samples.

Results

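The 9 genes described here carry, activate, bind or read thyroid hormone in the embryonic mouse cochlea: the receptors Thra and Thrb, their dimer partners Rxra and Rxrb, the corepressor Ncor1, the deiodinases Dio2 and Dio3, the transporter Slc16a10 and the binding protein Crym. They were listed by name and matched by gene symbol through Ensembl identifiers, and they are 9 of the 54232 genes in the count files. Reads of messenger RNA were counted per gene in 9 bulk libraries at E14.5, each made from the dissected ducts of the left and right ear of a single embryo. Prdm16 encodes a zinc finger transcriptional regulator, and the study asked what its loss changes in the transcriptome of the developing duct.

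The 3 groups were WT (Prdm16 +/+), heterozygote (Prdm16 cGT/+) and Prdm16 cGT null (Prdm16 cGT/cGT) embryos, with 3 libraries in each. All 9 embryos came from crosses of heterozygous parents on the FVB/NJ background, and none received a treatment. The cGT allele is a gene trap carried in every tissue, so these libraries do not separate changes that start within the duct from changes that start elsewhere in the embryo. Libraries held 24095322 to 30819118 counts. Prdm16 RNA was at 184 to 225 CPM (counts scaled to a common library size, with TMM factors) in WT, 123 to 151 CPM in heterozygote and 19.1 to 27.4 CPM in null embryos, with no overlap between the groups.

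Thyroid hormone reaches cells mainly as the prohormone thyroxine, which membrane transporters carry inward and deiodinases convert to active triiodothyronine or degrade. Its nuclear receptors bind DNA as dimers with retinoid X receptors, recruit corepressors such as NCOR1 when no hormone is bound, and exchange them for coactivators when it is. In the cochlea this system is known for timing late maturation, and mice without Thrb are deaf.

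At the level of the set, Thrb was the 1 member called between null and WT, where a call is an edgeR adjusted p below 0.05 with a log2 fold change beyond 0.5 in either direction. In that comparison 7 of the 9 members had enough counts to be tested, and 293 of 17168 tested genes (1.71%) were called. The median log2 fold change was -0.12 over the tested members and 0.01 over all tested genes. Both deiodinases were near or below the detection floor in every genotype.

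**Figure D1:**
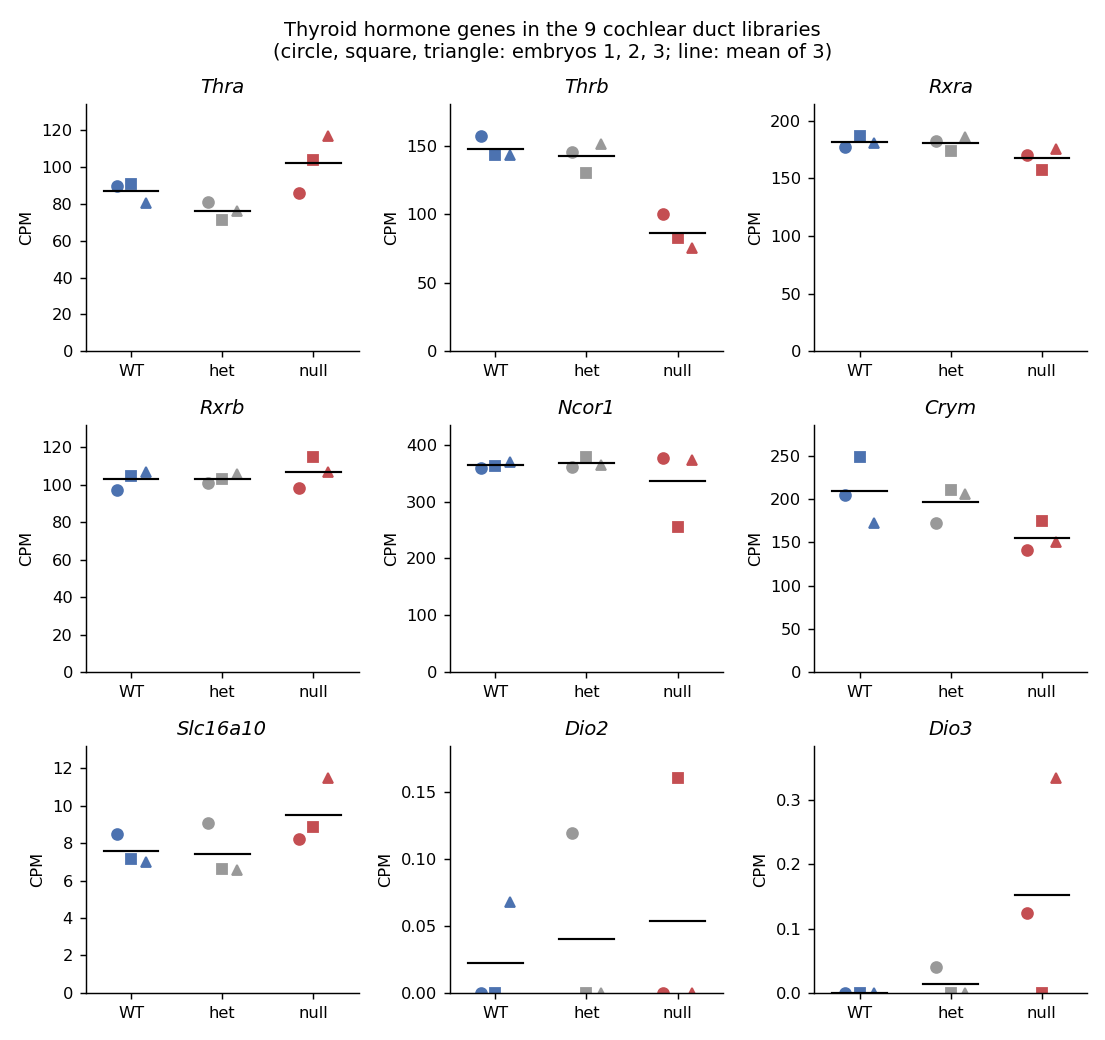
Level of each of the 9 members in the 9 libraries, in CPM on linear axes that start at 0, with a symbol for each embryo and a line at the mean of 3. The Thrb values of the null embryos, 75.1 to 100 CPM, lie below all WT and heterozygote values, and the panels of Dio2 and Dio3 span less than 1 CPM.

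Thrb encodes the beta receptor and lies on the plus strand at chr14:17660261-18038090 of mm10 (ENSMUSG00000021779). Its annotated transcripts start at separate promoters. The RefSeq promoter sequences are shown because the deposited count adds reads from all 7 annotated Thrb transcripts, whereas the quantitative PCR primers of the study match only 1 of them. The upstream window, chr14:17660710-17661009 (GRCm38.p6, plus strand, 250 bases before the start and 50 after), holds the start of 3 annotated transcripts. The downstream window, chr14:17981394-17981693, holds the start of 1, the transcript that both primers match. Capitals mark AGGTCA, the half-site that thyroid hormone and other nuclear receptors bind, searched on both strands.
Thrb upstream promoter: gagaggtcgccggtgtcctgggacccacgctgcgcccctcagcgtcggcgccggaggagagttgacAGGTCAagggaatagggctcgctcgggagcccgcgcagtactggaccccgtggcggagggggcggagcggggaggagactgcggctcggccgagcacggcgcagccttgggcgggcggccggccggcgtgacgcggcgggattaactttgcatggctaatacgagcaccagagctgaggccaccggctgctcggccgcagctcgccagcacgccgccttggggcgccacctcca
Thrb downstream promoter: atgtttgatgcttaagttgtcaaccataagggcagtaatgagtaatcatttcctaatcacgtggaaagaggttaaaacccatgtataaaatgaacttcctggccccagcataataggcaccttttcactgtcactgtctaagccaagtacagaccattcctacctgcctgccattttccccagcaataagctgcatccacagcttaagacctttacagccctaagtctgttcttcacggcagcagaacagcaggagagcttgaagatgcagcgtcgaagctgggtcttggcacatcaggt
Thrb forward primer: CCAGAGGTACACGAAGTGTGC
Thrb reverse primer: AGGTTTCCAGGGTAACTACAGG

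The primers map to chr14:17981892-17981912 and chr14:17982061-17982082, both in coding sequence of exon 1 of that transcript, with a product of 191 bases and no match in any other annotated gene. The forward primer reads the plus strand and the reverse primer its complement. By quantitative PCR the study reported Thrb as downregulated in null cochleae, a result for the matched transcript alone. AGGTCA was present once in the upstream window and absent from the downstream window. Over the 7 members with a window, 2 of 11 windows held it, against 5340 of 32851 windows of that length in the table (16.3%). Direct repeats of AGGTCA spaced by 4 or by 1 bases were in none of the 11. A match of letters is a description of the sequence, and the counts do not show which start was used.

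Thrb RNA fell in the null ducts. It was at 157, 143 and 143 CPM in WT embryos 1, 2 and 3, at 145, 130 and 151 CPM in the heterozygotes, and at 100, 82.7 and 75.1 CPM in the null embryos. Every null value was below every value of the other genotypes, while WT and heterozygote values overlapped. By edgeR the difference from WT was -0.78 on the log2 scale, with a standard error of 0.112, a 95% interval of -1.04 to -0.52 and an adjusted p = 0.0163, and the null mean was 58.3% of the WT mean. Calls in the lower direction made up 0.786% of the genes tested, and groups without overlap in that direction 8.95%. In bulk RNA, fewer cells that express Thrb and less Thrb RNA per cell cannot be told apart.

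Against heterozygotes, Thrb was lower in null embryos too. By edgeR the difference was -0.72 on the log2 scale, with a standard error of 0.117 and an adjusted p = 0.0431, in a comparison where 0.615% of 17067 genes were called, 0.322% in the lower direction, and where groups lay apart in the lower direction in 9.09%. Between heterozygote and WT the log2 fold change was -0.06 (95% interval -0.20 to 0.09, edgeR adjusted p = 0.764). The comparisons of null embryos with WT and with heterozygotes share the 3 null libraries, so they are not independent of each other.

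The call of Thrb against WT was lost without any of 4 libraries. Its log2 fold change stayed between -0.91 and -0.69 when each of the 6 libraries was left out in turn, and the edgeR adjusted p rose to 0.108 without WT 1, 0.093 without WT 2, 0.061 without WT 3 and 0.0563 without null 2. Null 2 is a library whose long genes ran low, as described with Ncor1, and Thrb, with 7403 exon bases, is longer than 82.2% of tested genes; the part of length in its values was not tested. The adjusted p was 0.0145 without null 1 and 0.0166 without null 3. Null 3, which held the lowest Thrb value, also had the highest mesenchyme and cartilage markers, as described with Thra. The part of those markers in its Thrb value was not tested. Against heterozygotes the adjusted p was 0.0514 under a filter that kept mean counts above 100. It was 0.227, 0.14 and 0.27 without heterozygotes 1, 2 and 3 and 0.0912 without null 2, with the log2 fold change on leaving out a library between -0.84 and -0.64.

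Epithelial markers were measured beside Thrb, since the duct is an epithelium. Of 10 cochlear epithelium markers, Tecta, a tectorial membrane glycoprotein (log2 fold change -0.93, edgeR adjusted p = 0.0128), and Fgf10, a growth factor (-0.58, adjusted p = 0.0254), were called lower in null against WT and none was called higher. The paper used Tecta and Fgf10 as markers of Kölliker's organ, the part of the epithelium that it reported Prdm16 to mark. The general epithelial genes Epcam and Cdh1 had log2 fold changes of 0.07 and 0.00. Of the 10 genes, 7 had positive log2 fold changes, with a median of 0.24 over the list, among them Otx2 at 0.50, Krt18 at 0.42, Jag1 at 0.36, Krt8 at 0.33 and Sox2 at 0.20, none of them called. The summed level of the 10 genes, in which Tecta is the most abundant at 1390 to 3230 CPM, was 5110 to 5540 CPM in WT, 5050 to 5710 CPM in heterozygote and 3710 to 4670 CPM in null embryos, and none of them was at 0 in any library. Melanocyte markers, which mark pigment cells, were also lower in sum in null embryos, at 18.9 to 51.0 CPM against 61.7 to 143 CPM in WT. In null against WT all 5 had negative log2 fold changes with a median of -2.14, 4 had an unadjusted p under 0.05, none was called, and none was at 0 in any library. Their sum was at 28.2 to 48.0 CPM in the heterozygotes. The part of either list in the Thrb difference was not tested.

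Thra, the gene of the alpha receptor (chr11:98740638-98769006, plus strand, ENSMUSG00000058756), did not follow Thrb. It was at 89.7, 90.8 and 80.6 CPM in WT, 81.3, 71.3 and 76.4 CPM in heterozygote and 85.7, 104 and 117 CPM in null embryos. Null and WT values overlapped, with null 1 between the WT values, whereas all null values were above all heterozygote values. Its log2 fold change was 0.23 in null against WT (95% interval -0.05 to 0.50, edgeR adjusted p = 0.5), 0.42 in null against heterozygote (95% interval 0.15 to 0.70, adjusted p = 0.243) and -0.19 in heterozygote against WT (95% interval -0.33 to -0.05, adjusted p = 0.227). Groups without overlap in the higher direction made up 9.06% of genes in null against heterozygote.

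The highest Thra value belonged to null 3, a library that also stood apart in connective tissue genes. The summed level of 10 mesenchyme markers was 1670 CPM in null 3, 70.9 and 42.9 CPM in the other null libraries, 116 to 926 CPM in WT and 61.1 to 104 CPM in heterozygote embryos, with no marker at 0. The summed level of 5 cartilage markers was 14000 CPM in null 3 and 5550 to 6740 CPM elsewhere. Without null 3 the Thra log2 fold change was 0.12 against WT and 0.31 against heterozygotes, and that of Thrb against WT was -0.69. The part of the mesenchyme genes in the Thra values was not tested.

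Exons of Thra share 263 bases, 5.7% of its exon length, with those of Nr1d1, a circadian repressor gene on the opposite strand. Whether counting used strand is not given in the sources used here, so reads on the shared bases cannot be assigned. Nr1d1 was at 4.05 to 4.90 CPM in all 9 libraries, and its log2 fold change in null against WT was -0.06.

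Levels per kilobase of exon set the receptor genes against each other. The length is that of all annotated exons merged, 7403 bases for Thrb and 4614 bases for Thra, in every library. The counts do not show which transcripts were present, so how close their WT levels lie rests on those lengths. In WT, Thrb was at 19.9 ± 1.14 and Thra at 18.9 ± 1.21 CPM per kb (SD, n = 3), and their ranges overlapped. In null embryos Thrb was at 11.6 ± 1.74 and Thra at 22.2 ± 3.45 CPM per kb (SD, n = 3), and every Thra value exceeded every Thrb value. The linear ratio of Thrb to Thra was 1.09, 0.978 and 1.11 in WT, 1.11, 1.13 and 1.24 in heterozygotes and 0.729, 0.497 and 0.399 in null embryos.

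The ratio was therefore lower in each null library than in any other library. Its mean on the log2 scale was 0.08 in WT and -0.93 in null embryos, a difference of -1.01. A two-sided exact permutation test gave p = 0.1, the smallest value that 3 libraries against 3 can give. The heterozygote ratio was 0.13 above WT on that scale, with the highest WT and the lowest heterozygote ratio both rounding to 1.11 and an exact permutation p = 0.1. This relative measure does not tell a fall of Thrb from a rise of Thra, and its null to WT difference was -0.81 without null 3 and -0.97 without null 2.

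**Figure D2:**
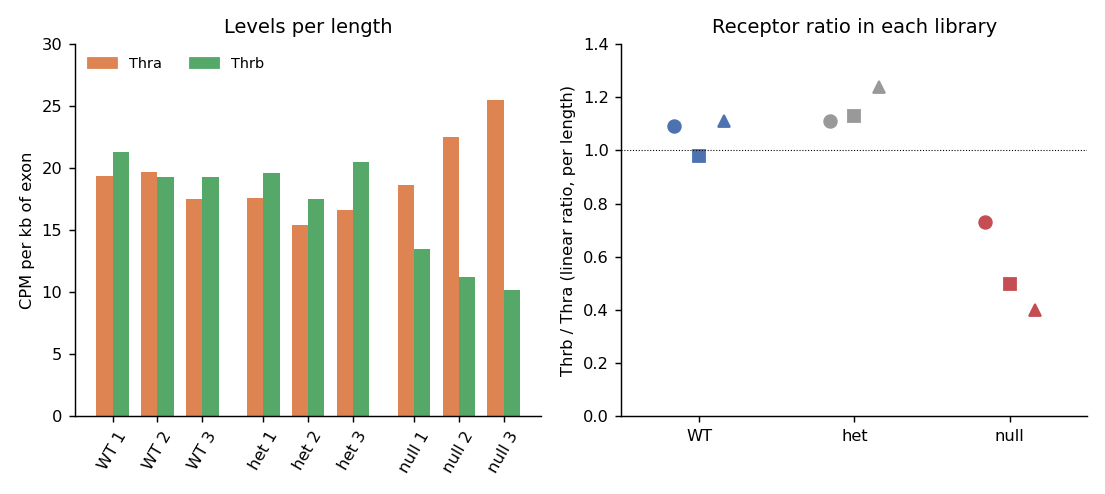
Left, Thra and Thrb in CPM per kb of merged exon length in each library. Right, the linear ratio of Thrb to Thra per library with a dotted line at equality, where the null embryos lie between 0.399 and 0.729 and all WT and heterozygote embryos between 0.978 and 1.24.

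The retinoid X receptors, the shared dimer partners, varied little between genotypes. Rxra (chr2:27676440-27762957, plus strand, ENSMUSG00000015846) was at 177, 187 and 181 CPM in WT, 183, 174 and 186 CPM in heterozygote and 170, 157 and 176 CPM in null embryos. Its null values lay just below the WT values without overlap, and groups without overlap in the lower direction made up 8.95% of genes in null against WT. Rxra had a log2 fold change of -0.12 (95% interval -0.29 to 0.05, edgeR adjusted p = 0.575).

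Rxrb (chr17:34031812-34038399, plus strand, ENSMUSG00000039656) was at 97.2, 105 and 107 CPM in WT, 101, 103 and 106 CPM in heterozygote and 98.1, 115 and 107 CPM in null embryos, with overlap of all groups. Its log2 fold change was 0.04 in null against WT (95% interval -0.15 to 0.24, edgeR adjusted p = 0.876). Rxrg, the remaining gene of that family, differed by -0.24 (95% interval -0.49 to 0.02, edgeR adjusted p = 0.446), and its WT level per length, 46.9 to 51.6 CPM per kb, was above the WT means of Rxra (33.3) and Rxrb (26.0).

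Ncor1 encodes the corepressor that unliganded receptors recruit (chr11:62316426-62458541, minus strand, ENSMUSG00000018501). It was at 360, 362 and 370 CPM in WT, 361, 379 and 365 CPM in heterozygote and 377, 256 and 374 CPM in null embryos. Null 2 was the 1 library outside 360 to 379 CPM, so the null values lay on both sides of WT. Ncor1 differed by -0.12 on the log2 scale in null against WT (95% interval -0.46 to 0.22, edgeR adjusted p = 0.789), and without null 2 it was 0.05.

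Null 2 also differed from the other libraries by gene length. Its median deviation from the mean of its genotype, in log2 CPM, was 0.13 over the 3557 genes with the shortest exons and -0.16 over the 3556 with the longest. In the other 8 libraries these medians stayed between -0.06 and 0.08. Ncor1, with 12811 exon bases, was longer than 96.2% of tested genes, and the part of length in its value was not tested. Exons of Ncor1 also share 82 bases with Pigl and 1 base with Ttc19, both on the opposite strand.

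**Figure D3:**
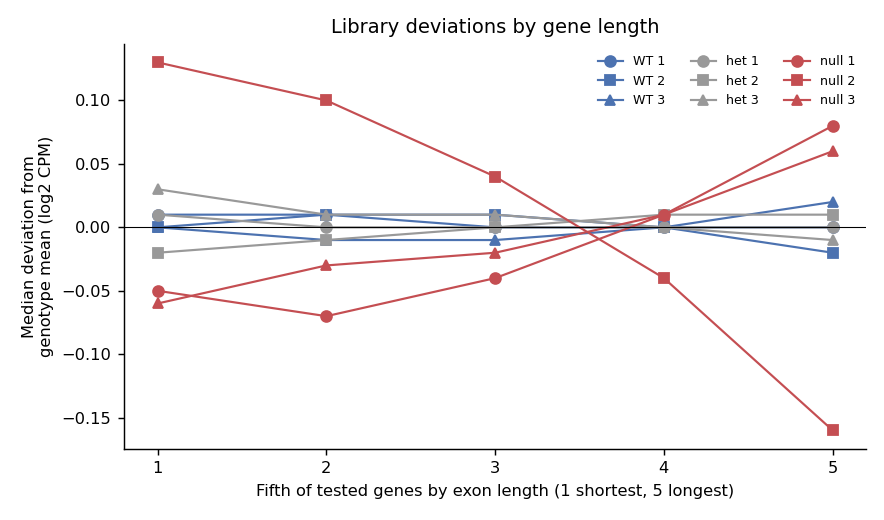
Median deviation of each library from the mean of its genotype (log2 CPM, vertical axis) over 5 groups of near equal size, from the genes with the shortest to those with the longest exons. Null 2 goes from 0.13 to -0.16, while the other libraries stay between -0.07 and 0.08.

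The deiodinases were at the limit of detection. Dio2, which activates thyroxine (chr12:90724552-90738438, minus strand, ENSMUSG00000007682), had 0, 0 and 2 counts in WT, 3, 0 and 0 in heterozygote and 0, 5 and 0 in null embryos. Dio3, which inactivates the hormone (chr12:110279068-110281097, plus strand, ENSMUSG00000075707), had 0, 0 and 0 counts in WT, 1, 0 and 0 in heterozygote and 3, 0 and 8 in null embryos. A count of 3, taken as the floor, corresponds to 0.0973 to 0.125 CPM in these libraries and covers counting error only. Values above it occurred only in null 2 for Dio2 (0.161 CPM) and null 3 for Dio3 (0.335 CPM).

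Neither gene passed the filter on low counts in any comparison, so neither was tested, and no difference was detectable at this depth. Dio1, the remaining deiodinase gene, had 0 counts in all 9 libraries, and Dio3os, a noncoding gene beside Dio3, had at most 4 counts, in null 3. Exons of Dio2 overlap 100 bases of Gm26512 on the opposite strand, which was at 0.

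Slc16a10 encodes a transporter of aromatic amino acids and thyroid hormone (chr10:40033532-40142258, minus strand, ENSMUSG00000019838). It was at 8.52, 7.18 and 6.99 CPM in WT, 9.08, 6.60 and 6.55 CPM in heterozygote and 8.22, 8.88 and 11.5 CPM in null embryos, with overlap of all groups and the highest value in null 3. The log2 fold change was 0.33 in null against WT (95% interval -0.09 to 0.75, edgeR adjusted p = 0.525), and 0.18 without null 3, the library with the high mesenchyme markers. The part of those markers in its level was not tested.

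Crym encodes mu-crystallin, which binds thyroid hormone in the cytoplasm (chr7:120186380-120202111, minus strand, ENSMUSG00000030905). Its level was 205, 249 and 173 CPM in WT, 173, 211 and 206 CPM in heterozygote and 141, 175 and 150 CPM in null embryos. Null 2, at 175 CPM, was above WT 3, at 173 CPM, so the groups overlapped, and the other null values were below all WT values. Crym differed by -0.43 on the log2 scale in null against WT (95% interval -0.76 to -0.10, edgeR adjusted p = 0.255) and -0.34 against heterozygotes (adjusted p = 0.298). Neither passed the threshold. Without WT 2, the library with the highest Crym level, the difference from WT was -0.28 (edgeR adjusted p = 0.703).

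Crym had the highest level per exon length of the 9 members in WT, at 61.6 ± 11.2 CPM per kb (SD, n = 3). Rxra followed at 33.3, Ncor1 at 28.4 and Rxrb at 26.0 CPM per kb, each of whose WT values did not overlap those of its neighbours. Thrb and Thra came next, near 19.9 and 18.9, with overlap between them. Slc16a10 was at 1.03 CPM per kb, and the deiodinases were last. This order, too, rests on the merged exon lengths.

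In heterozygote against WT none of the 7 tested members was called by edgeR, DESeq2 or limma-voom, in a comparison where edgeR called 26 of 17269 genes (0.151%). Thra was the 1 member of the 7 with an unadjusted p under 0.05, which 13.1% of all tested genes had. The largest log2 fold change among the members was that of Thra, and those of Rxra, Rxrb, Slc16a10 and Ncor1 were -0.01, 0.00, -0.03 and 0.02. In null against heterozygote Thrb was the 1 member called.

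**Figure D4:**
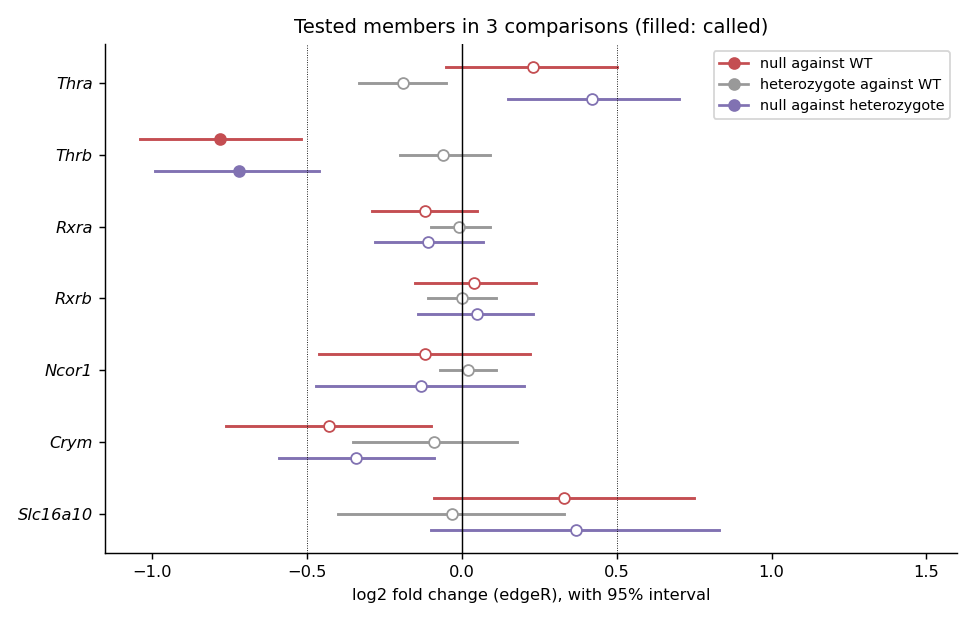
Log2 fold change of the 7 tested members in the 3 comparisons, with 95% intervals from edgeR and dotted lines at a change of 0.5 in either direction. Filled symbols mark calls, and only Thrb has them, at -0.78 in null against WT and -0.72 in null against heterozygote.

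The wider pathway was read from 37 listed thyroid hormone genes, of which 28 are not among the 9 members. In null against WT edgeR tested 26 of these 28 and called none, 2 had an unadjusted p under 0.05 in the higher and 4 in the lower direction, and DESeq2 and limma-voom also called none. Their median log2 fold change was -0.10, beside 0.01 over all genes, and 12.2% of all tested genes had an unadjusted p under 0.05. In heterozygote against WT edgeR and limma-voom called none of 26, DESeq2 called Slc7a5 lower among 298 of 17269 genes called in all, and 8 had an unadjusted p under 0.05, beside 13.1% of all tested genes. In null against heterozygote none of 25 was called by edgeR, DESeq2 or limma-voom, and 4 had an unadjusted p under 0.05, beside 11.4% of all tested genes. Without null 3, edgeR called 2 of the listed genes lower in null against WT and 1 lower in null against heterozygote, in fits that called 232 of 17768 and 101 of 17639 genes lower in all.

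Among transporters, the 5 tested genes ran from 0.33 for Slc16a10 to -0.68 for Slc7a5, a subunit of an amino acid transporter that also carries thyroid hormone. Slc7a5 was at 31.0, 32.8 and 23.3 CPM in WT, 19.8, 16.4 and 15.5 CPM in heterozygote and 13.5, 15.5 and 25.5 CPM in null embryos. Heterozygote values lay below WT without overlap (edgeR log2 fold change -0.75, adjusted p = 0.0636; DESeq2 adjusted p = 1.03e-05), and null values overlapped WT through null 3 (adjusted p = 0.309 in edgeR). Groups without overlap in the lower direction made up 8.99% of genes in heterozygote against WT. The edgeR adjusted p was 9.01e-10 without the low-count filter and 0.666 with all 9 libraries in 1 fit, and limma-voom gave 0.0979. When a library was left out, edgeR gave 0.00117 (without WT 3) to 0.273 (without heterozygote 3), so the call rests on the setting. Markers of several other cell types had negative log2 fold changes in heterozygote against WT as well, though edgeR called none of them. Of 10 mesenchyme markers 9 had an unadjusted p under 0.05 in the lower direction (median log2 fold change -2.88), as did all 5 endothelial (-3.56), 4 of 5 melanocyte (-1.68) and all 3 tested erythroid markers (-1.87), whereas the medians of the Schwann and cartilage markers were 0.06 and 0.00. The mesenchyme and endothelial sums in WT, 116 to 926 and 2.92 to 77.0 CPM, were lowest in WT 3, which also held the lowest WT value of Slc7a5. The part of these cells in the heterozygote difference was not tested. Without null 3, the library with the highest mesenchyme markers, Slc7a5 was called lower in null against WT (edgeR adjusted p = 0.0252), and the part of those markers in its level was not tested.

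The cofactor lists held no called gene. The 6 corepressor complex genes ranged from -0.12 for Ncor1 to 0.26 for Hdac3, a histone deacetylase of the complex (edgeR adjusted p = 0.276), with a median of -0.01. All 6 coactivators had negative log2 fold changes, from -0.49 for Ncoa1, a steroid receptor coactivator (edgeR adjusted p = 0.104), to -0.02 for Crebbp, an acetyltransferase, with a median of -0.16. For each of the 6, null 2, the library low in long genes, held the lowest value of all 9 libraries. Without null 2, 4 of the 6 were positive and the median was 0.03, with Crebbp at 0.12 and Ncoa1 at -0.37, and of the corepressor genes 4 of 6 were positive, with a median of 0.05. Among binding proteins, Ttr, the carrier transthyretin, differed by 0.51 on the log2 scale (edgeR adjusted p = 0.397), and by 0.30 without null 2, whose 36.7 CPM was the highest value.

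The 9 genes listed as responsive to thyroid hormone in other settings held no called gene. Their median log2 fold change in null against WT was 0.13, 5 were positive and 4 negative, and edgeR called none of them and gave none an unadjusted p under 0.05. The extremes were Nrgn, a neuronal calmodulin-binding protein, at 0.91 (95% interval -1.84 to 3.66), and Slc26a5, which encodes the outer hair cell motor prestin, at -0.55 (95% interval -1.50 to 0.40). Slc26a5 was below 1 CPM in every library. Nrgn was at 4.53 CPM in null 3, at 0.372 and 0.0646 CPM in null 1 and null 2 and at 0.373 to 1.57 CPM in WT. Without null 3, the library with the highest mesenchyme markers, 3 of the 9 were positive and 6 negative, the list median was -0.41, and Nrgn and Klf9 turned from 0.91 and 0.27 to -2.04 and -0.45, with no gene of the list called. The part of the mesenchyme genes was not tested.

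**Figure D5:**
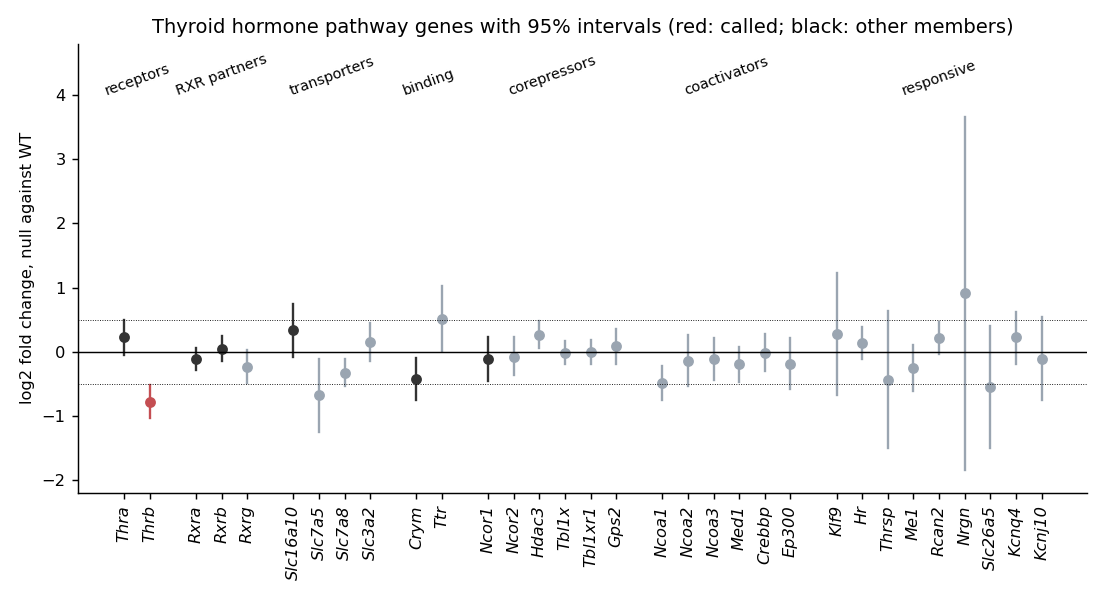
Log2 fold change in null against WT with 95% intervals for 32 of the 33 tested thyroid hormone genes, grouped by role, with dotted lines at 0.5 in either direction. Thrb, in red at -0.78, is the only called gene of the 33, and Nrgn has the widest interval.

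The genes most like each member were ranked by Pearson r of log2 CPM over the 9 libraries among 17797 genes, as a description, since all points share the 3 genotypes and the same libraries. Nearest to Thrb were Pls1 (r = 0.985), Rasef (0.981) and Sh2d4a (0.980). Nearest to Thra were Cavin3 (0.993), Papss1 (0.963) and Stim1 (0.962). Thra and Thrb themselves had r = -0.758, and Thra and Slc16a10 had r = 0.837, and null 3 held the highest Thra and Slc16a10 and the lowest Thrb values.

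For the dimer partners, Rxra was nearest to Bcl2l13 (r = 0.976), Ift80 (0.960) and Ift172 (0.957), and Rxrb to Anapc16 (0.976), Zfand2b (0.950) and Gm43672 (0.944). Ncor1 was nearest to Ankrd17 (0.996), Srcap (0.994) and Ago2 (0.992), with the low value of null 2 as the main feature of its profile. Crym was nearest to Ints11 (0.962), Cdkn3 (0.961) and Vars (0.949), and Slc16a10 to Wdr72 (0.953), Mkrn2 (0.936) and Capn5 (0.924). Dio2 and Dio3 had too few counts for such a ranking.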

How the data were processed

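RNA was measured in 9 cochlear duct libraries, grouped by labelled genotype. The authors deposited whole-number read counts for each Ensembl gene, not normalized, from single 50 base reads of TruSeq libraries aligned to mm10. The submitters' processing notes list cutadapt 1.13, STAR, HTSeq 0.6.1p1 and DESeq2. The strand setting and annotation release are not given in the sources used here. All 37 mitochondrial genes hold 0 counts.

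Names and positions came from GENCODE M21, which holds 54165 of the 54232 genes, and promoters from RefSeq (GRCm38.p6). Thra and Crym have no promoter shown. Genotypes were compared in pairs with edgeR 4.0.16 in R 4.3.3 (TMM, filterByExpr with a minimum count of 10, quasi-likelihood test, Benjamini-Hochberg adjustment over all tested genes), after a test on simulated data. On simulated data this test called 53 of 95 genes with a log2 fold change of 1 and 97 of 97 with 2. It also called 5 genes set to no change, among 16895 simulated in all. Genes with a change of 1 were thus often missed. Correlations used a prior count of 2. Alternatives were DESeq2 1.42.0, limma-voom 3.58.1, RLE factors, other count filters, 1 fit of all libraries, a replicate block, no fold threshold and leaving out each library.

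The members and lists were chosen with earlier results of these data known. Named genes are the members, Prdm16, called genes and the extremes of each pathway list, the 3 genes most like each member, and genes with overlapping exons. Outside that rule, Dio1, Dio3os, Slco1c1, Klf9 and some cell type markers are named too. The Slco1c1 and Klf9 observations were picked from these same data. No 2 libraries of a genotype agreed within sampling noise (chi-square per gene 5.699 to 68.818). Each library is a separate embryo, and 3 per genotype set the precision. A listed pathway gene is counted in the lists but its values are not reported here.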

Additional observations from a re-analysis of the deposited data

How the results depend on the processing

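The Thrb difference between null and WT kept its direction in all alternatives and its adjusted p under 0.05 in the 7 that kept all libraries, where the log2 fold change was -0.79 to -0.78. Members called in null against WT numbered 0 to 1 when a library was left out. Against heterozygotes, members called fell from 1 to 0 with a minimum mean count of 100 (Thrb adjusted p = 0.0514) and with the replicate block (0.0851), and numbered 0 to 1 when a library was left out; in heterozygote against WT they were 0 throughout. Genes called in null against WT, 293, became 609 with DESeq2, 476 without the low-count filter, 468 with all 9 libraries in 1 fit, 133 with the replicate block and 68 to 446 when a library was left out. Genes called in heterozygote against WT, 26, became 298, 684, 0 and 197 in the same order, 11 with limma-voom, 45 without the fold threshold and 0 to 505 when a library was left out. Genes called in null against heterozygote, 105, became 360, 366, 164 and 52, and 12 to 182. The cause of these shifts was not tested. The ratio of Thrb to Thra in null against WT was -1.25 to -0.81 when a library was left out, and -1.01 with the replicate block (exact permutation of signs, p = 0.25, the smallest that 3 pairs can give).

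Replicate numbers were not taken to pair the embryos, since the correlation of deviations between libraries of one number ran from -0.284 to 0.00534 in null against WT, from -0.0581 to 0.202 in heterozygote against WT and from -0.117 to 0.139 in null against heterozygote. Small log2 fold changes reversed when 1 library was left out. In heterozygote against WT, Crym ranged from -0.20 (without WT 3) to 0.06 (without WT 2), Rxra from -0.03 to 0.02 (0.01 without WT 2 and 0.02 without heterozygote 2) and Slc16a10 from -0.20 (without heterozygote 1) to 0.06 (0.06, 0.04 and 0.05 without WT 1, heterozygote 2 and heterozygote 3). Without null 2, Ncor1 became 0.05 and Rxrb -0.01 against WT, and 0.03 and -0.01 against heterozygotes. Their ranges were -0.21 to 0.05 and -0.01 to 0.10 against WT, and -0.23 to 0.03 and -0.01 to 0.11 against heterozygotes. Rxrb in heterozygote against WT, at 0.00 with all libraries, ranged from -0.04 (without WT 1) to 0.03 (without WT 3). Outside the members, the replicate block made Slc7a5 a call in heterozygote against WT (adjusted p = 0.0161). Dio2 and Dio3 had too few counts to be tested, and the other members were compared with only 3 embryos per genotype.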

Other observations

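Slco1c1, a thyroid hormone transporter of vessel walls, was at 1.19, 2.12 and 0.102 CPM in WT 1, 2 and 3 and at 0 to 0.126 CPM in the other 6 libraries. The summed level of 5 endothelial markers was 77.0, 63.6 and 2.92 CPM in the same WT libraries, 3.01 to 5.63 CPM in heterozygotes and 1.97 to 45.4 CPM in null embryos. Cdh5 and Tie1 were at 0 in at least 1 library. With all libraries Slco1c1 did not pass the low-count filter in any comparison. Without that filter edgeR called it lower in null (adjusted p = 0.0266) and in heterozygote embryos (adjusted p = 5.77e-11) against WT. It also passed the filter in some comparisons that left out a library, and was called there once, in heterozygote against WT without WT 3 (adjusted p = 0.000592). Over the 3 heterozygotes it had 1 count in all, and the part of endothelial cells in its level was not tested.

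Klf9, a transcription factor gene that responds to thyroid hormone, was at 19.4 CPM in null 3 and at 6.32 to 9.80 CPM in the other 8 libraries, where null 1 and null 2 were the lowest and the third lowest values (6.32 and 6.88 CPM). Null 3 was also the library with the highest mesenchyme markers, 1670 CPM in sum, and the part of those cells in its Klf9 level was not tested.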
